A study of Mus musculus with 8 samples.

Results

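The genes of the voltage-gated sodium channels, the voltage-gated calcium channels and the HCN channels (hyperpolarization-activated, cyclic nucleotide-gated) were followed in hippocampal RNA of mice with altered Pyk2. Members were chosen by symbol alone: the Scn genes of the alpha and beta subunits, the Cacna1, Cacna2d and Cacnb1 to Cacnb4 genes, and the Hcn genes. The rule took in 36 genes. Of these, 34 could be matched among the 17678 genes that the tables of mutant and control libraries have in common, and 26 passed the filter on low values and were tested among 12954 genes.

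The series asks how the tyrosine kinase Pyk2, encoded by Ptk2b, acts on contextual fear memory, and whether it needs its autophosphorylation site. It holds 8 RNA-seq libraries of hippocampus from C57BL/6 mice. The 4 groups of 2 libraries are CRISPR knockouts of Pyk2 (KO), CRISPR mice that carry the Y402F substitution in Pyk2 (Y402F), wild-type mice that served as controls of the knockout (KO controls) and wild-type mice that served as controls of the substitution (Y402F controls). Age, the part of Ptk2b that was removed, and whether a library is 1 animal or a pool are not given in the sources used here, so p-values measure the spread between libraries, which may be technical.

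Sodium channels open on depolarization and carry the upstroke of the action potential, with a pore-forming alpha subunit and beta subunits that tune gating and bind other cells. Calcium channels couple depolarization to transmitter release, gene regulation and burst firing, and each high-voltage-activated pore is joined by an alpha2delta and a beta subunit that bring it to the membrane. HCN channels open on hyperpolarization and carry an inward current that sets resting potential, rhythm and dendritic integration in hippocampal pyramidal cells.

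Several facts of the libraries bear on every comparison. Mutant libraries came as tables with expected counts and control libraries as Cufflinks tables without counts, so processing and genotype cannot be told apart where a mutant is set against its controls. The mutant libraries held 5756180 to 6017219 expected counts in all, and the depth of the control libraries is unknown. Ptk2b stood at 55.8 and 68.4 scaled FPKM in KO libraries, 352 and 394 in Y402F libraries, 308 and 307 in KO controls and 322 and 316 in Y402F controls, so the labels of the knockout held. Scaled FPKM are fragments normalized to transcript length and library size and then divided by a factor per library, so that levels can be compared between genes. By Xist and Ddx3y, replicate 1 of KO, replicate 1 of Y402F and both KO controls were female, and the other 4 libraries were male. Hippocampal granule and pyramidal cell markers were found in every library, with the 5 neuron markers summing to 3522 to 3661 scaled FPKM in mutants and 2822 to 2930 in controls. The choroid plexus transcript Ttr stood at 653 scaled FPKM in replicate 2 of Y402F and at 1011 and 1028 in Y402F controls, while the other 5 libraries had 1.19 to 10.2. In bulk tissue RNA, fewer cells of a type and less RNA per cell cannot be told apart.

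Among the sodium channel alpha subunits, Scn8a and Scn2a led. Scn8a (Entrez 20273; chromosome 15, 100869858 to 101045938) had 41.0 and 42.2 scaled FPKM in KO libraries, 48.5 and 39.8 in Y402F libraries, 23.5 and 28.2 in KO controls and 41.9 and 45.5 in Y402F controls. Both KO controls lay below the other 6 libraries, whose values were mixed between groups. Scn8a encodes the main pore of the mature axon initial segment and node of Ranvier. Scn2a (Entrez 110876; chromosome 2, 65620771 to 65767447) had 37.5 and 34.2 scaled FPKM in KO libraries, 44.6 and 33.3 in Y402F libraries, 24.1 and 24.6 in KO controls and 29.9 and 37.4 in Y402F controls. Both KO controls were again lowest, and the Y402F libraries overlapped the Y402F controls. Scn2a encodes the pore that serves excitatory neurons early and in the proximal initial segment. Scn8a exceeded Scn2a in 7 of 8 libraries. Scn1a, the pore on which fast-spiking interneurons depend, ranged from 8.55 to 14.1 scaled FPKM, and Scn3a, mostly an embryonic pore, from 2.87 to 5.15. In both mutant groups replicate 1 had more Scn1a than replicate 2, 1.35 times in KO and 1.40 times in Y402F.

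The remaining alpha subunits belong mainly to other tissues and were near the floor. Scn7a, a sodium-sensing relative, ranged from 0.210 to 0.464 scaled FPKM. The pores of sensory neurons, Scn9a and Scn11a, ranged from 0.137 to 0.517 and from 0 to 0.0316 scaled FPKM. Scn10a, another pore of sensory neurons, was listed in no mutant library and at 0 to 0.0122 FPKM in controls. Scn4a, the skeletal muscle pore, was listed in 1 mutant library, replicate 2 of Y402F, with 4 expected counts, and has more than 1 row in the control tables, which reach 0.0216 FPKM. None of these was tested.

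Sodium channel beta subunits included some of the most abundant members. Scn3b attaches to the pore without a covalent bond. Scn3b (Entrez 235281; chromosome 9, 40269217 to 40291618) had 97.4 and 106 scaled FPKM in KO libraries, 121 and 115 in Y402F libraries, 81.3 and 74.1 in KO controls and 87.1 and 91.2 in Y402F controls. All 4 mutant libraries were above all 4 controls. Scn2b (Entrez 72821; chromosome 9, 45117782 to 45130070) had 86.2 and 82.9 scaled FPKM in KO libraries, 84.5 and 81.2 in Y402F libraries, 63.8 and 61.9 in KO controls and 62.6 and 60.9 in Y402F controls. Mutants and controls were again apart, while KO overlapped Y402F and KO controls overlapped Y402F controls. Scn2b and Scn4b are linked to the pore by a disulfide bond. Scn4b (Entrez 399548; chromosome 9, 45138395 to 45154152) had 6.37 and 5.64 scaled FPKM in KO libraries, 5.77 and 6.92 in Y402F libraries, 3.90 and 4.29 in KO controls and 3.75 and 3.78 in Y402F controls. It was less abundant than Scn2b and Scn3b in all 8 libraries, with every mutant above every control.

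Of the pore-forming calcium channel subunits, Cacna1a and Cacna1e had the highest means over the 8 libraries, followed by Cacna1h and Cacna1b. Cacna1a (Entrez 12286; chromosome 8, 84338639 to 84640246) had 24.7 and 24.7 scaled FPKM in KO libraries, 25.8 and 20.7 in Y402F libraries, 27.7 and 46.9 in KO controls and 50.4 and 31.3 in Y402F controls. All 4 controls were above all 4 mutants, but the 2 libraries of each control group were far apart. Cacna1a encodes the P/Q-type pore of fast transmitter release. Cacna1b (Entrez 12287; chromosome 2, 24603887 to 24763152) had 13.4 and 12.6 scaled FPKM in KO libraries, 13.5 and 11.6 in Y402F libraries, 19.3 and 22.5 in KO controls and 26.2 and 22.02 in Y402F controls. For this N-type presynaptic pore, too, every control was above every mutant. Cacna1e (Entrez 12290; chromosome 1, 154390731 to 154884501) had 27.8 and 27.8 scaled FPKM in KO libraries, 40.1 and 28.0 in Y402F libraries, 16.3 and 16.9 in KO controls and 25.2 and 27.2 in Y402F controls. KO controls were lowest and replicate 1 of Y402F was highest, with the other 5 libraries between 25.2 and 28.0. Cacna1e encodes the R-type pore. Cacna1c (Entrez 12288; chromosome 6, 118587240 to 119196890) had 10.2 and 11.4 scaled FPKM in KO libraries, 12.4 and 12.05 in Y402F libraries, 6.86 and 7.43 in KO controls and 9.62 and 10.3 in Y402F controls. Both Y402F libraries were highest and both KO controls lowest. Cacna1c encodes the main L-type pore, which links depolarization to gene expression.

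The T-type pores open near rest and drive bursts. Cacna1h (Entrez 58226; chromosome 17, 25374285 to 25433783) had 15.8 and 18.7 scaled FPKM in KO libraries, 16.7 and 16.8 in Y402F libraries, 19.8 and 17.5 in KO controls and 27.4 and 24.0 in Y402F controls. Both Y402F controls were above the other 6 libraries. Cacna1g (Entrez 12291; chromosome 11, 94408391 to 94474198) had 4.86 and 4.98 scaled FPKM in KO libraries, 5.08 and 5.09 in Y402F libraries, 11.5 and 5.77 in KO controls and 15.0 and 23.1 in Y402F controls. The mutants were within 4.86 to 5.09, below all controls, and the controls were spread widely. Cacna1i (Entrez 239556; chromosome 15, 80287238 to 80398279) had 6.32 and 7.38 scaled FPKM in KO libraries, 8.02 and 8.52 in Y402F libraries, 9.73 and 7.89 in KO controls and 9.69 and 14.3 in Y402F controls. Both KO libraries were lower than all others. Cacna1d, the second neuronal L-type pore, had 15.3 scaled FPKM in replicate 1 and 4.59 in replicate 2 of the KO controls. The Cufflinks bounds of these estimates, 0.730 to 29.9 and 2.05 to 7.13, overlap. Cacna1f of retina and Cacna1s of skeletal muscle did not pass the filter, at 0 to 0.0561 and 0.0633 to 0.828 scaled FPKM.

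Neighbours in the order of calcium pores were often not separable. Cacna1a exceeded Cacna1e in 4 of 8 libraries, Cacna1e exceeded Cacna1h in 5 and Cacna1c exceeded Cacna1g in 5. The lower end, Cacna1g, Cacna1i and Cacna1d, averaged 9.42, 8.98 and 7.91 scaled FPKM over all libraries.

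Among auxiliary calcium channel subunits, the summed beta subunit level was 195 and 213 scaled FPKM in KO libraries, 204 and 209 in Y402F libraries, 184 and 180.5 in KO controls and 169 and 166 in Y402F controls. The sums of the mutants were above those of the controls. Cacna2d1 (Entrez 12293; chromosome 5, 15934691 to 16374511) had 29.4 and 25.2 scaled FPKM in KO libraries, 34.4 and 23.7 in Y402F libraries, 16.9 and 15.8 in KO controls and 23.2 and 21.4 in Y402F controls. Every mutant was above every control, by a narrow margin between Y402F and its controls. Cacna2d1 is the subunit that gabapentin binds. It exceeded Cacna2d3 in 4 of 8 libraries, and Cacna2d2 averaged 6.78 scaled FPKM. Cacna2d4, known from retina, ranged from 0.141 to 1.27 and was not tested. Cacnb3 (Entrez 12297; chromosome 15, 98630840 to 98644529) had 98.1 and 115 scaled FPKM in KO libraries, 99.8 and 116 in Y402F libraries, 108 and 105 in KO controls and 78.0 and 77.8 in Y402F controls. Both Y402F controls were below the other 6 libraries, and KO controls lay inside the range of the mutants. Cacnb1 (Entrez 12295; chromosome 11, 98001508 to 98023034) had 59.8 and 59.7 scaled FPKM in KO libraries, 55.4 and 59.2 in Y402F libraries, 48.9 and 44.3 in KO controls and 49.4 and 44.4 in Y402F controls. The mutants were above the controls, and the 2 control groups overlapped. The order Cacnb3, Cacnb1, Cacnb2 and Cacnb4 held in each of the 8 libraries, with Cacnb2 and Cacnb4 averaging 24.3 and 13.4 scaled FPKM.

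Hcn2 encodes a main HCN subunit of brain. Hcn2 (Entrez 15166; chromosome 10, 79716634 to 79736108) had 43.8 and 51.1 scaled FPKM in KO libraries, 36.4 and 42.6 in Y402F libraries, 43.0 and 41.3 in KO controls and 30.9 and 28.4 in Y402F controls. Y402F controls were lowest, and KO libraries were above the Y402F libraries. The order Hcn2, Hcn3 and Hcn4 held in all 8 libraries. Hcn3 averaged 3.16 scaled FPKM, and Hcn4, the pacemaker subunit of heart, stayed at 0.201 to 0.522 and was not tested.

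**Figure D1:**
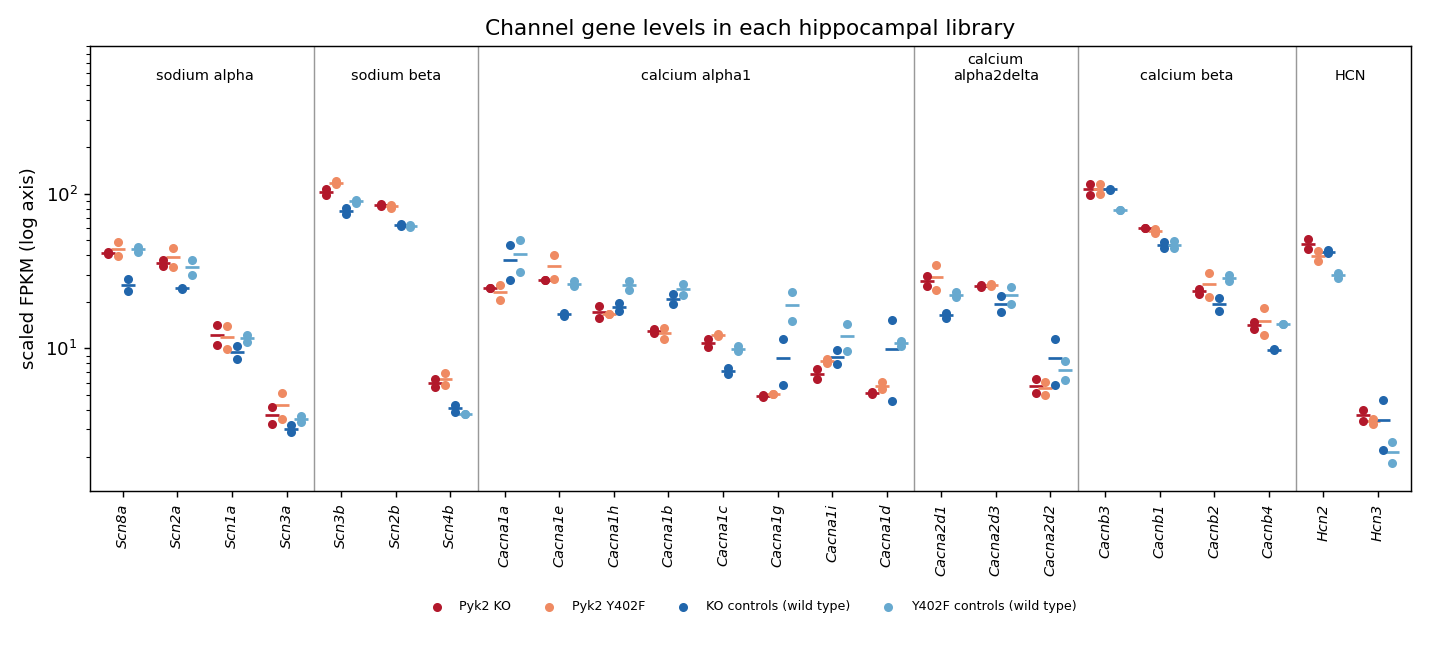
Scaled FPKM (log axis) of 24 tested channel genes in each library; points are libraries and bars are means of the 2 libraries of KO, Y402F, KO controls and Y402F controls, from left to right within a gene. Scn8a, Scn2a and Cacna1e are lowest in KO controls, and Cacnb3 and Hcn2 in Y402F controls.

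The tested members were long transcripts. Their median length in the mutant tables was 7809 bases, up to 13519 for Cacna1c, against 2833 bases for all tested genes, and 16 of 26 fell in the longest quintile. Between replicates, no tested member differed over 1.5-fold within KO or within Y402F, while 5 did within KO controls and 2 within Y402F controls. Over all genes these shares were 10.1, 11.4, 15.1 and 14.8%. Several members lay just under that limit within Y402F, with replicate 1 above replicate 2 by 1.49 times for Cacnb4, 1.47 for Scn3a, 1.45 for Cacna2d1 and 1.43 for Cacna1e. Cacna2d2 and Scn4b lay furthest the other way, at 0.82 and 0.83 times. Expected counts of tested members ran from 59 for Hcn3 to 3049.8 for Scn8a in a library. Those of Scn1a, Scn2a, Scn3a, Scn8a, Scn2b, Cacna1b, Cacna1i and Cacna2d2 were whole, within 0.005, in no mutant library, so reads were divided between places there and their levels are less certain.

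Sequence upstream of the transcription start is shown for 3 members that passed the test between the wild-type groups, from RefSeq (build GRCm38.p6). Each line gives the 100 bases before the start, on the plus strand, and capitals mark CCGCCC, the GC box GGGCGG read on the other strand.
Hcn2, chr10:79716534-79716633: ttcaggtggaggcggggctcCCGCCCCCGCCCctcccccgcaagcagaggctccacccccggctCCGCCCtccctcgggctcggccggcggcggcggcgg
Cacnb3, chr15:98634667-98634766: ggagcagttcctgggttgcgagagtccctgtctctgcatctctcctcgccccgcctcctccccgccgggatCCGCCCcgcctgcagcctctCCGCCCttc
Scn8a, chr15:100870545-100870644: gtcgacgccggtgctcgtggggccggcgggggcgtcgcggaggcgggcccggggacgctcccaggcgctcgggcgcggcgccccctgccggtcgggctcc
Hcn2 held 3 GC boxes and this Cacnb3 window 2, while the Scn8a window and the other windows of Cacnb3 and Scn8a held 0. The Cacnb3 window not shown, chr15:98632228-98632327, lies upstream of the one shown. All windows of Cacnb3 and Scn8a lie inside the gene positions given above. RefSeq windows matched 18 of the 26 tested members, with 28 windows. Within 250 bases upstream, on either strand, 11 of these 28 windows (39.29%) held the motif, against 10756 of all 32851 windows (32.74%). Their median GC content was 64.2%, against 52.4% for all windows. A match describes the letters only.

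No channel gene passed the test between KO and Y402F. The comparison asks whether loss of the kinase and loss of its autophosphorylation site leave different channel RNA, and both groups come from tables with expected counts. With the quasi-likelihood test of edgeR, 0 of 26 members were called at an adjusted p under 0.05, against 0.00772% of all genes (1 of 12950, Ptk2b). Unadjusted, 0 members had a p under 0.05, and DESeq2 and limma also called 0. Log2 differences ran from -0.30 to 0.26 with a median of -0.04, against -0.01 for all genes. They were positive for 9 members and negative for 17. The sign of the median rested on 1 library: without replicate 1 of Y402F the median was 0.056, and Cacna1e stood at -0.01.

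The smallest p belonged to Cacna1e, whose scaled FPKM averaged 27.8 ± 0.0556 in KO libraries and 34.0 ± 8.54 in Y402F libraries (SD, n = 2 each). Its log2 difference was -0.30 (SE 0.16, edgeR adjusted p = 1), with a 95% interval of -0.62 to 0.03. Replicate 1 of Y402F stood alone at 40.1 scaled FPKM, while replicate 2, at 28.0, was close to the KO libraries, both at 27.8. Cacna1i followed at -0.28 (interval -0.59 to 0.04, edgeR adjusted p = 1). Hcn2 came next at 0.26 (interval -0.05 to 0.57, edgeR adjusted p = 1), with mean scaled FPKM of 47.4 ± 5.15 in KO libraries and 39.5 ± 4.38 in Y402F libraries (SD, n = 2 each). For Scn8a the interval was -0.37 to 0.19, and for Cacna1a -0.23 to 0.40, so log2 differences of that size were not resolved. Judged by scaled FPKM, KO was above Y402F without overlap for 3 members and below for 6, that is 9 of 26, against 25.7% of all genes.

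Genes whose products bind, anchor, traffic or inhibit these channels were counted beside them. Of 22 such partner genes, 19 were tested, since Rem1, Gem and Rrad, which inhibit calcium channels, did not pass the filter. None of the 19 was called between KO and Y402F by edgeR, none had an unadjusted p under 0.05, and DESeq2 and limma called 0. Their median log2 difference was -0.03. The 4 smallest p-values belonged to Unc79 at -0.22, a subunit of the sodium leak channel, Ank3 at -0.20, the ankyrin of the initial segment, Stac2 at 0.19, an adaptor of L-type channels, and Rem2 at -0.27, an inhibitor of calcium channels.

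The wild-type groups did differ in channel RNA. Cacnb3 and Hcn2 were higher and Scn8a was lower in KO controls than in Y402F controls. Both groups are labelled wild-type and come from Cufflinks tables, so neither the mutations nor the kind of table separates them. By Xist and Ddx3y, both KO controls were female and both Y402F controls male, so line and sex cannot be told apart between them. In limma on log2(scaled FPKM + 1), 4 of 26 members (15.4%) were called, against 7.98% of all genes, with 4.82% of genes higher and 3.16% lower. The members' median was -0.20, against -0.02 for all genes. An unadjusted p under 0.05 was found for 12 of 26 members and for 3513 of all 12954 genes. Without overlap, 4 members were higher and 13 lower in KO controls, against 28.1 and 30.9% of all genes (59% in either direction).

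Cacnb3 averaged 106 ± 1.82 scaled FPKM in KO controls and 77.9 ± 0.146 in Y402F controls (SD, n = 2 each), which on the log2 scale differ by 0.44 (SE 0.11, limma adjusted p = 0.0453). Hcn2 averaged 42.1 ± 1.22 in KO controls and 29.7 ± 1.78 in Y402F controls, a difference of 0.49 (SE 0.12, limma adjusted p = 0.0471). Scn8a went the other way, at 25.8 ± 3.33 in KO controls and 43.7 ± 2.51 in Y402F controls, a difference of -0.74 (SE 0.13, limma adjusted p = 0.0202). Cacna1e at -0.63 and Cacna1g at -1.10 missed the threshold, with limma adjusted p of 0.0509 and 0.0554. All 8 pore-forming calcium channel genes had negative differences, with a median of -0.41 and none called. Among partner genes 2 of 19 were called (10.5%, against 7.98% of all genes). Stac2 was higher at 0.60 (limma adjusted p = 0.0265). Rimbp2, a protein of the active zone that binds calcium channels, was lower at -0.54 (limma adjusted p = 0.0362).

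The calls rest on few libraries: 0 members were called without replicate 1 or without replicate 2 of the Y402F controls, 1 without replicate 2 of the KO controls, and 2 without either KO library, whose spread enters the fit. No partner was called when any 1 of the 4 control libraries was left out. A term for sex, which only the mutant libraries can separate from line, gave 7 called members, adding Cacna1e at -0.87, Cacna2d1 at -0.79 and Cacnb4 at -0.85, with 9.88% of all genes called.

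**Figure D2:**
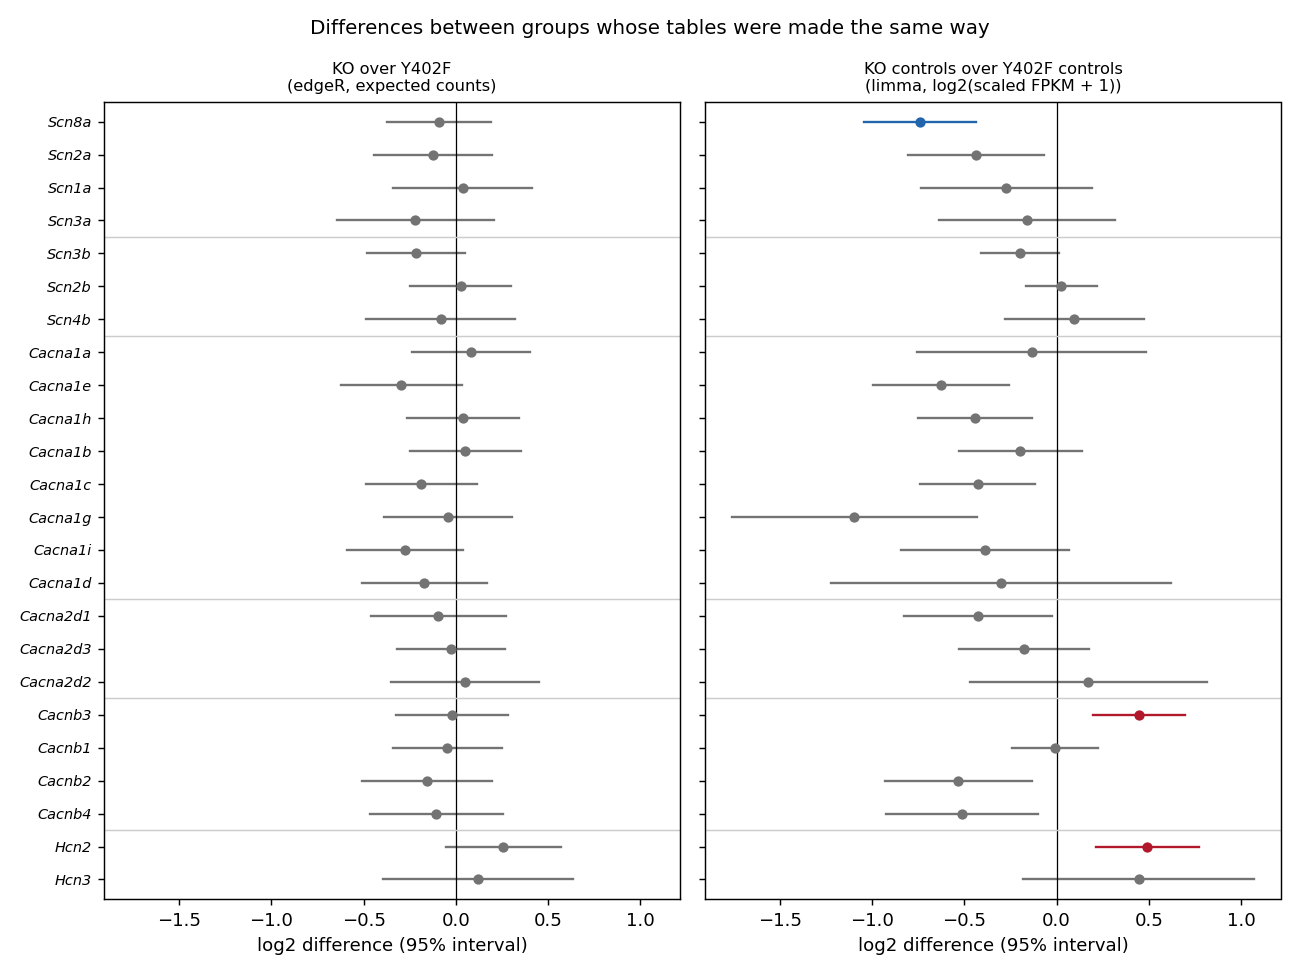
Log2 difference with its 95% interval for 24 tested members, KO over Y402F at left (edgeR on expected counts) and KO controls over Y402F controls at right (limma on log2(scaled FPKM + 1)); red is called higher, blue called lower and grey not called. No member is called at left, and Cacnb3 and Hcn2 (higher) and Scn8a (lower) are called at right.

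Markers of other cells moved between the same wild-type groups. Oligodendrocyte markers, 5 of 5 found, summed to 4055 and 4171 scaled FPKM in KO controls and 2531 and 2559 in Y402F controls, with 2 called higher. Dentate granule cell markers, 3 of 3 found, summed to 47.7 and 50.8 in KO controls and 68.0 and 67.8 in Y402F controls, with 2 called lower. Neocortical markers, 5 of 5 found, summed to 64.2 and 67.7 in KO controls and 89.1 and 94.4 in Y402F controls, with 2 called lower. Choroid plexus markers summed to 13.6 and 13.9 in KO controls and 1030.5 and 1049 in Y402F controls, with 3 of 5 called lower. Interneuron markers summed to 892 and 875 in KO controls and 740 and 728 in Y402F controls, with 2 of 6 called higher. Blood markers summed to 470 and 474 in KO controls and 245 and 258 in Y402F controls, with 3 of 3 called higher. Microglial markers summed to 191 and 202 in KO controls and 141 and 119.8 in Y402F controls, with 2 of 5 called higher. Thalamic and habenular markers summed to 15.7 and 18.7 in KO controls and 20.01 and 20.2 in Y402F controls, with 0 of 5 tested called and a median log2 difference of -0.33. Of that list Gbx2 was at 0 in 7 of the 8 libraries. Neuron markers summed to 2822 and 2880 in KO controls and 2930 and 2924 in Y402F controls, with 0 of 5 called. The part of cell makeup in the channel differences was not tested.

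Transcript length moved with the difference between the wild-type groups, over all genes and over the channels. The median log2 difference of all genes by quintile of length, from short to long, was 0.24, 0.07, -0.03, -0.11 and -0.21. The members' median was 0.45 for the 4 members of the middle quintile, -0.18 for the 5 of the fourth and -0.41 for the 16 of the longest. Among called members, Cacnb3 (2712 bases) and Hcn2 (3195 bases), which were higher, lie in the middle quintile, where the median of all genes was -0.03. Scn8a (11246 bases), which was lower, lies in the longest. In the longest quintile 0.463% of all genes were called higher and 5.91% lower; in the shortest 13.7% were called higher and 0.926% lower. As a description, Spearman's rho between difference and length was -0.67 over the 26 members and -0.40 over 12954 genes, which share the same 4 libraries. Between KO and Y402F it was -0.52 over the members and -0.14 over all genes. Length also moved with the difference of replicate 1 from replicate 2 within Y402F, with a rho of 0.50 over the members and 0.31 over all genes. Within KO these were -0.05 and 0.12. The part of length in the members' differences was not tested.

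**Figure D3:**
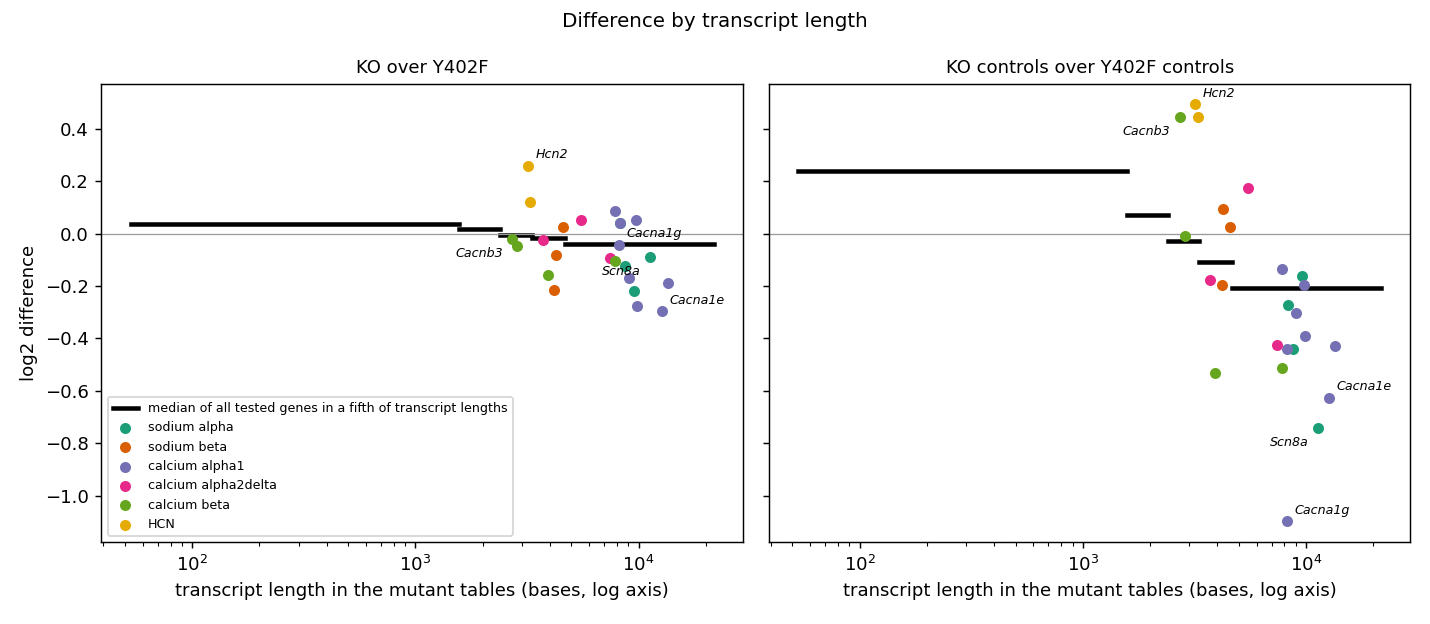
Log2 difference against transcript length (log axis, bases) for 24 tested members, coloured by family, with KO over Y402F at left and KO controls over Y402F controls at right; black bars are medians of all tested genes in each quintile of length. At right the bars go from 0.24 for short to -0.21 for long transcripts, with Cacnb3 and Hcn2 above 0 and Scn8a below 0 at the long end.

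Against their own controls, KO libraries had more RNA of axonal sodium pores and of several calcium channel subunits, and less Cacna1b. In limma 9 members were called higher and 1 lower, 10 of 26 (38.5%), against 37.6% of all genes, with 16.6% higher and 20.9% lower. The members' share is thus near that of all genes. Their median was 0.30, against 0.00 for all genes, and 16 were higher and 4 lower without overlap, against 35.7 and 35.3% of all genes (71% in either direction). For Scn8a and Scn2a the KO libraries overlapped the Y402F controls, and both KO controls were below all other libraries. Processing and genotype cannot be told apart here. Sex differed in part as well, since both KO controls were female by Xist and Ddx3y and replicate 2 of KO was male.

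Scn8a averaged 41.6 ± 0.795 scaled FPKM in KO and 25.8 ± 3.33 in KO controls (SD, n = 2 each), which on the log2 scale differ by 0.67 (SE 0.13, limma adjusted p = 0.00512). Cacna1b was the one lower member, at 13.0 ± 0.611 in KO and 20.9 ± 2.27 in KO controls, a difference of -0.64 (SE 0.15, limma adjusted p = 0.00976). Among sodium channels Scn2a rose by 0.53, Scn2b by 0.42 and Scn3b by 0.39. Among calcium channels Cacna1e rose by 0.71, Cacna2d1 by 0.70, Cacna1c by 0.53 and Cacnb1 by 0.35, all on the log2 scale with limma adjusted p from 0.00536 (Scn2b) to 0.0307 (Scn2a). Cacnb3 and Hcn2, called between the wild-type groups, had 0.00 and 0.16 and were not called.

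Cell type markers also stood apart between KO and KO controls. Oligodendrocyte markers summed to 2679 and 3240 scaled FPKM in KO libraries and 4055 and 4171 in KO controls, and dentate granule cell markers to 66.04 and 77.6 in KO libraries and 47.7 and 50.8 in KO controls. Neuron markers summed to 3661 and 3636 in KO libraries and 2822 and 2880 in KO controls. Markers of CA1 and CA3 pyramidal cells summed to 135 and 155 in KO libraries and 162 and 188 in KO controls, but the genes of that list differed. Wfs1, Spink8 and Bok were lower in KO libraries. Fibcd1 overlapped, at 34.5 and 41.7 in KO libraries and 34.8 and 35.1 in KO controls. Iyd was not lower, at 4.28 and 5.69 in KO libraries and 4.28 and 3.47 in KO controls. Interneuron markers summed to 819 and 826 in KO libraries and 892 and 875 in KO controls. The groups overlapped in none of these lists, and 71% of all genes did not overlap either. The part of these markers in the channel differences was not tested.

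Of the 19 partner genes, 5 rose and 5 fell in KO against KO controls. That is 52.6% called, against 37.6% of all genes, with 16.6% higher and 20.9% lower. Fgf12 fell furthest, with 24.5 and 19.8 scaled FPKM in KO libraries and 51.0 and 57.2 in KO controls, a difference of -1.26 (limma adjusted p = 0.000312). Fgf12 and Fgf13 are intracellular growth factor relatives that bind the sodium pore. Fgf13 rose by 0.49, Nalcn, the sodium leak channel, by 0.77, Nfasc of the initial segment by 0.56, Stac by 0.62 and Pex5l, the auxiliary subunit of HCN channels, by 0.43. The others that fell were Cbarp, a calcium channel inhibitor, at -0.83, Ank3 at -0.76, Nrcam at -0.54 and Rimbp2 at -0.36.

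Leaving out a KO library lowered the count of called members to 5 without replicate 1 and 4 without replicate 2, and the count of partners to 6 without either one or without replicate 2 of the KO controls. Scn8a and Scn2b were called in each of 19 alternatives, while Scn2a was called in 13 and Cacnb1 in 14.

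Against their own controls, Y402F libraries had more RNA of the sodium channel beta subunits Scn2b, Scn3b and Scn4b, of Hcn2 and of Cacnb3, and less of the N-type pore Cacna1b and the T-type pores Cacna1g and Cacna1h. In limma 7 members were called higher and 3 lower, 10 of 26 (38.5%), against 32.3% of all genes, with 13% higher and 19.3% lower. Their median was 0.22, against 0.00 for all genes. Without overlap, 13 were higher and 7 lower, against 34.5 and 34.1% of all genes (68.6% in either direction). No sodium channel alpha subunit was called. The share of members called, 38.5%, is again near the 32.3% of all genes. For Hcn2 and Cacnb3 the Y402F libraries overlapped the KO controls, and both Y402F controls were below all other libraries. As for KO, processing and genotype cannot be told apart. Sex differed in part here too, since both Y402F controls were male by Xist and Ddx3y and replicate 1 of Y402F was female.

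Cacna1g averaged 5.09 ± 0.00681 scaled FPKM in Y402F and 19.1 ± 5.73 in Y402F controls (SD, n = 2 each), which on the log2 scale differ by -1.69 (SE 0.29, limma adjusted p = 0.00298). Cacna1b averaged 12.5 ± 1.38 in Y402F and 24.1 ± 2.93 in Y402F controls, a difference of -0.89 (SE 0.15, limma adjusted p = 0.00230). Cacna1h fell by 0.59 on the log2 scale (limma adjusted p = 0.0116). Hcn2 rose by 0.40 and Cacnb3 by 0.46. Sodium channel beta subunits rose by 0.62 for Scn4b, 0.42 for Scn2b and 0.40 for Scn3b, with limma adjusted p from 0.00653 (Scn2b) to 0.0214 (Scn4b). Scn8a, at 0.01 with a 95% interval of -0.30 to 0.31, was not called.

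Dentate granule cell markers summed to 85.3 and 90.8 scaled FPKM in Y402F libraries and 68.0 and 67.8 in Y402F controls, and neuron markers to 3616 and 3522 in Y402F libraries and 2930 and 2924 in Y402F controls. Markers of CA1 and CA3 pyramidal cells, whose sum was lower in KO, had a higher sum here, at 153 and 173 against 137 and 131. Of that list Fibcd1 and Bok were higher, while Wfs1, Spink8 and Iyd overlapped. Interneuron markers overlapped, at 718 and 736 in Y402F libraries and 740 and 728 in Y402F controls. Oligodendrocyte markers overlapped, at 2435 and 2752 in Y402F libraries and 2531 and 2559 in Y402F controls. Choroid plexus markers summed to 7.12 and 666 in Y402F libraries and 1030.5 and 1049 in Y402F controls. Their part in the channel differences was not tested.

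Among partners 5 rose and 6 fell in Y402F against its controls. That is 57.9% called, against 32.3% of all genes, with 13% higher and 19.3% lower. Fgf12 had 23.5 and 19.6 scaled FPKM in Y402F libraries and 46.1 and 51.1 in Y402F controls, a difference of -1.14 (limma adjusted p = 0.000587). Its 4 mutant libraries were all below its 4 control libraries. Also lower were Ank3 at -0.91, Nrcam at -0.91, Rimbp2 at -0.84, Cbarp at -0.80 and Nedd4l, a ubiquitin ligase that removes sodium channels, at -0.75. Those that rose were Sptbn4, the spectrin of the initial segment, at 0.60, Stac2 at 0.51, Nalcn at 0.45, Nfasc at 0.40 and Fgf13 at 0.39.

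Without scaling, under which the median log2 difference of all genes was -0.12 for each mutant group against its controls, 6 members were called for Y402F, 2 higher and 4 lower, so the split turned round. Called members numbered 5 without replicate 1 and 6 without replicate 2 of the Y402F controls, partners 7 without replicate 2, and the members' median was 0.05 without replicate 1 of Y402F.

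**Figure D4:**
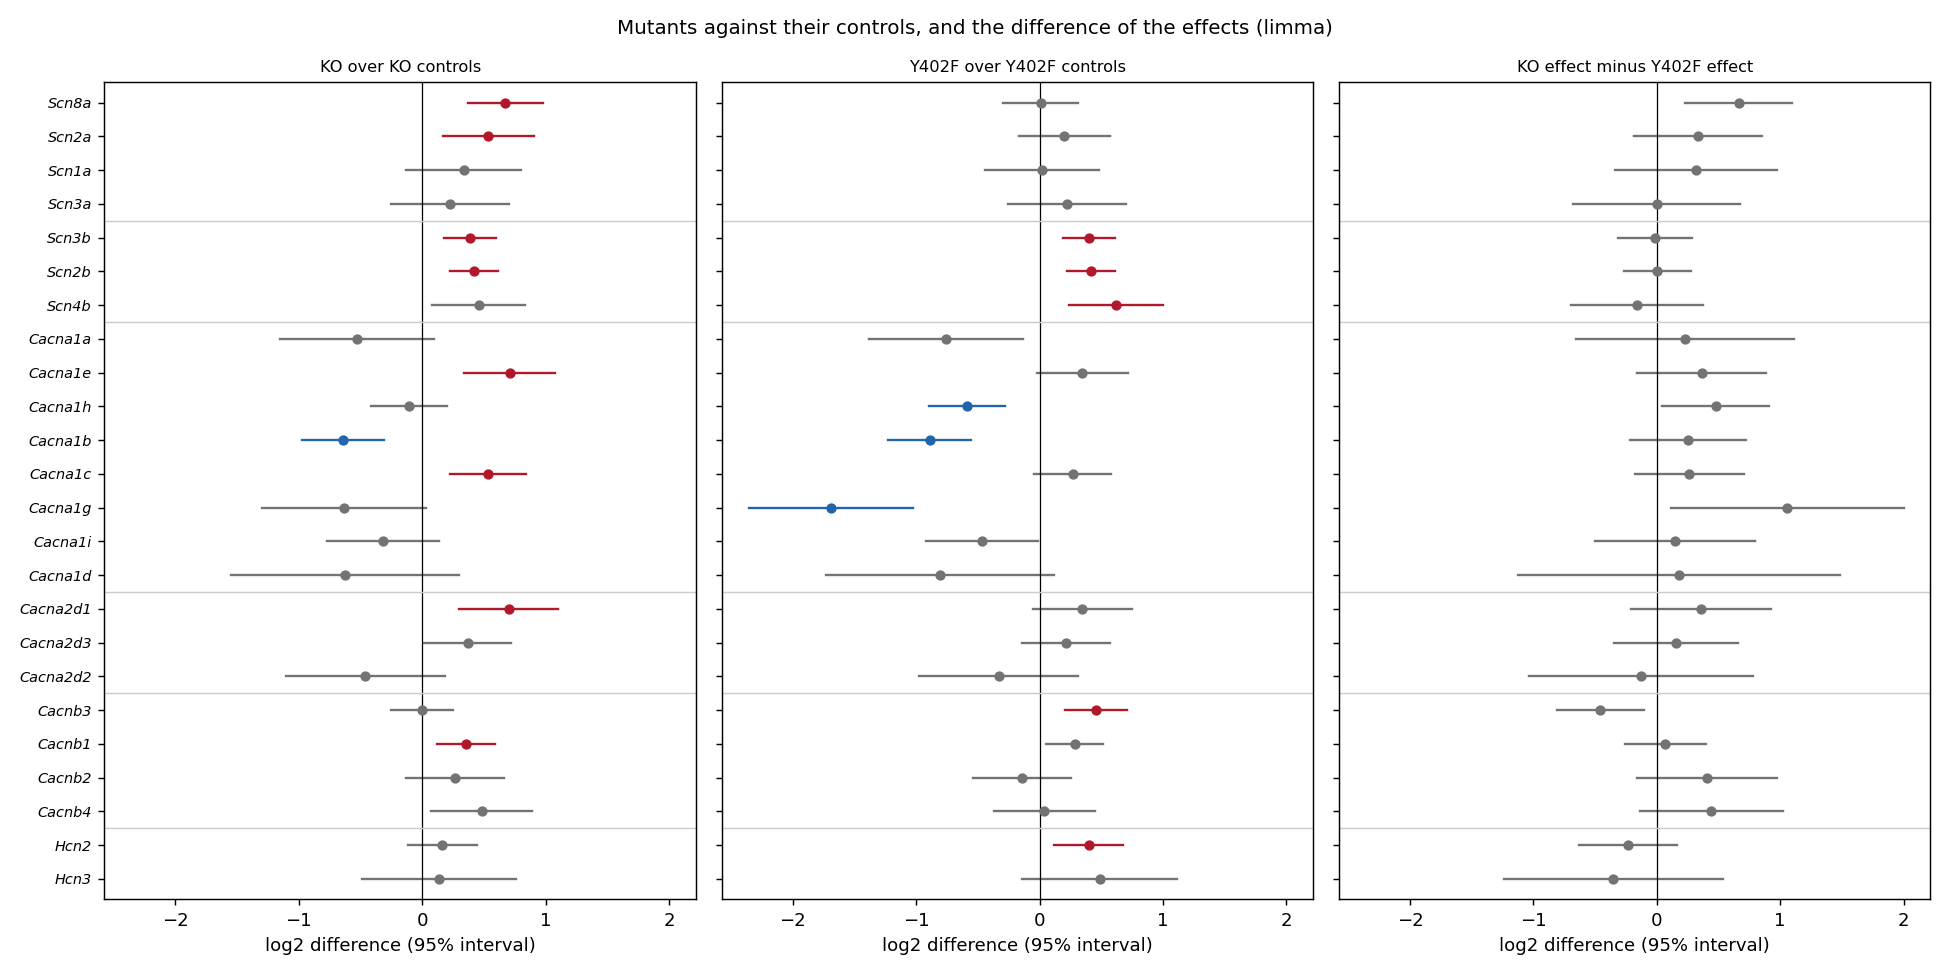
Log2 difference (limma) with its 95% interval for 24 tested members, for KO over KO controls, Y402F over Y402F controls and the difference of both effects; red is called higher, blue called lower and grey not called. Scn2b and Scn3b are called higher and Cacna1b lower in the left and middle panels, and no member is called at right.

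The KO effect minus the Y402F effect tests whether the mutants depart from their controls by different amounts, and a processing difference that is the same in both lines cancels in it. No member passed: limma called 0 of 26, against 0.0309% of all genes (4 of 12954). At an unadjusted p under 0.05 there were 5 members and 1685 genes, and no other tool was run. Differences were positive for 19 members and negative for 7, with a median of 0.17 against 0.02 for all genes. Scn8a had the smallest p, at 0.66 (SE 0.19, limma adjusted p = 0.227, 95% interval 0.23 to 1.09). Its KO effect was 0.67 and its Y402F effect 0.01, and the 2 mutant groups overlapped while KO controls lay below Y402F controls. Cacnb3 was at -0.46 (limma adjusted p = 0.290), Cacna1g at 1.06 (0.337) and Cacna1h at 0.48 (0.346).

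Length moved with this difference as well, in the other direction. All genes had medians of -0.21 in the shortest and 0.17 in the longest quintile, and the 16 members of the longest had 0.29. None of the 19 partners was called, 3 had an unadjusted p under 0.05, and the smallest p-values belonged to Rimbp2 at 0.48, Nedd4l at 0.48, Stac2 at -0.42 and Sptbn4 at -0.38. With a term for sex, Cacnb3 at -0.68 was called (limma adjusted p = 0.0477), among 1.04% of all genes. The comparison shares its libraries with the others, so its values are not separate evidence.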

How the data were processed

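RNA-seq of 8 mouse hippocampal libraries was used as deposited. The mutant tables hold, per the file headers, a length, an expected count and an FPKM for each Entrez gene, and the control tables hold FPKM per Ensembl gene with lower and upper bounds in the layout of Cufflinks. HISAT, Bowtie 1 and the build mm9 are named for every sample, and Cufflinks for controls, per the submitters' processing notes. Gene positions of the control tables are on GRCm38, where the start of Hcn2 directly follows its RefSeq promoter window. The handling of strand and of multiply placed reads by the authors, and control depth, are not given in the sources used here. Mutant totals are in the report.

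Genes were joined by symbol (17596) or Entrez table (88), and 6 with a repeated identity were dropped. The deposited FPKM were divided by median-of-ratios factors. The filter kept genes whose mean FPKM reached 1. KO against Y402F used the quasi-likelihood test of edgeR 4.0.16 with TMM on expected counts rounded to whole numbers (12950 genes). The other 4 comparisons used limma 3.58.1 (intensity trend) on log2(scaled FPKM + 1) of all 8 libraries (12954 genes), which understates changes of low genes. Calls are at a Benjamini-Hochberg adjusted p under 0.05 over all genes, two-sided. Both were checked on simulated data. Also used were matplotlib 3.10.9, numpy 2.4.6, pandas 2.3.3, DESeq2 1.42.0, Python 3.11.15 and R 4.3.3. Alternatives were other scalings, filters and pseudocounts, no trend, a replicate block, a term for sex and leaving out each library.

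The members, the partner and marker lists and the tests were chosen with earlier results of these data known. Values per library were printed for members called in any comparison, the 3 with the smallest p in each and the highest of each family, and partner genes were named where called or among the 4 smallest p. Counts cover all members, and some members are not reported here.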

Additional observations from a re-analysis of the deposited data

How the results depend on the processing

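No member called in a comparison, or among the 3 smallest p of one, changed direction in that comparison under the alternatives. Members near 0 could: Scn8a in Y402F against Y402F controls was 0.01 as reported and -0.05 with a term for sex. In KO against Y402F, 0 members were called under each alternative. For KO controls against Y402F controls, 4 members and 2 partners were called as reported. Without a filter these were 2 and 1, with quantile normalization 2 members (1 higher, 1 lower), without an intensity trend 0 and 0, with a term for sex 7 and 1 (members' median -0.30), and with only the 4 libraries compared 2 and 1. Leaving out 1 library gave 0 to 5 members and 0 to 2 partners. For KO against KO controls the members' median was 0.13 without a filter, 0.17 without scaling and 0.40 with quantile normalization, and leaving out 1 library gave 4 to 11 members, 6 to 10 partners and a median of 0.21 to 0.33. For Y402F against Y402F controls 6 members were called without scaling, the median was 0.087 without a filter, 0.086 without scaling and 0.37 with quantile normalization, and leaving out 1 library gave 5 to 11 members, 7 to 11 partners and a median of 0.048 to 0.27. For the KO effect minus the Y402F effect, a term for sex gave 1 called member, and leaving out 1 library gave a median of 0.10 to 0.31. For KO against Y402F leaving out 1 library gave a median of -0.12 to 0.056. The cause of these shifts was not tested.

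Over all genes, KO against Y402F gave 1 call as reported, 2 with DESeq2 or its size factors, 5 with limma, 4 with a replicate block or a term for sex, and 16 to 34 with 1 library left out. The wild-type comparison gave 1034 calls as reported, 513 without a filter, 170 without a trend, 382 with only its 4 libraries and 178 to 883 with 1 library left out. KO against KO controls gave 4866 calls and 3107 without replicate 1 of KO. The difference of effects gave 4 calls, 7 without a filter, 2 with a filter at 5 FPKM, 135 with a term for sex and 6 to 15 with 1 library left out.

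The labels tie libraries together by no more than a replicate number, but in both mutant groups replicate 1 was female and replicate 2 male, so for KO against Y402F the block and the term for sex gave the same values. The correlation of replicate differences was 0.21 between KO and Y402F and -0.03 to 0.05 between other groups. A fit with the replicate number as a block called 0 members for KO against Y402F, 3 between the wild-type groups (Hcn2 missed at a limma adjusted p of 0.0527), 10 for each mutant against its controls and 0 for the difference of effects. A control library left out leaves an arm of 1, assumed to vary like the others, and the unknown control depth limits what can be said of low members such as Hcn3.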
